A study of Homo sapiens with 6 samples.

Results

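A set of 54 genes of mitosis and the kinetochore was followed in A549 cells after knockdown of HNRNPD. The genes were taken by name from the deposited count table, and all 54 were found among its 56303 genes. They were sorted into 11 roles: cyclins (3 genes), mitotic kinases (5), CDC25 phosphatases (2), spindle checkpoint (5), centromere and kinetochore (10), kinesin motors (9), condensin (5), chromosome topology and surface (2), the anaphase trigger (3), spindle and cytokinesis (9), and a single transcription factor, FOXM1. A549 is an established human lung adenocarcinoma line. It received either a negative-control siRNA (3 libraries, here "control") or an siRNA against HNRNPD (3 libraries, here "HNRNPD siRNA"), and RNA was sequenced from each. HNRNPD encodes the RNA-binding protein AUF1. The labels give no siRNA sequence, no time after transfection and no statement that the libraries came from separate cultures, so a p-value here weighs a difference against the spread of these libraries alone, and that spread may be technical.

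Entry into mitosis is driven by cyclin B bound to the kinase CDK1, which CDC25 phosphatases switch on. Condensin and topoisomerase II then compact and untangle the chromosomes, the kinetochore couples each centromere to spindle microtubules, and the spindle checkpoint holds back the anaphase-promoting complex until every kinetochore is attached. Most of these genes are transcribed late in the cell cycle, through B-MYB and FOXM1 acting with the MuvB complex at a promoter element called the cell cycle genes homology region (CHR), often beside CCAAT boxes bound by NF-Y. In bulk RNA, fewer cells in mitosis and less of these mRNAs per cell cannot be told apart.

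Because the CHR is the element this gene class is best known for, the promoter windows of the members were searched for it. RefSeq windows of 250 bases before to 50 after an annotated start (GRCh38.p14) were found for 45 of the 54 genes, in 57 windows. The letters searched were TTTGAA and TTCGAA for the CHR, and CCAAT, on both strands. The CHR and CCAAT letters can overlap by a single base at most. No other spelling of the CHR was searched, so a window without these letters is not shown to lack the element. The windows below span the 130 bases before the start of genes described later, with CHR and CCAAT letters in capitals. CCNB2, PLK1 and CDK1 (at the second of its RefSeq starts) are shown for the CHR letters close to the start, and NEK2 and KIF20A, among the members that fell most, for their pairs of CCAAT letters. They lie at chr15:59105016-59105145 (CCNB2, plus strand), chr16:23678759-23678888 (PLK1, plus), chr10:60778348-60778477 (CDK1, plus), chr1:211675622-211675751 (NEK2, minus) and chr5:138178982-138179111 (KIF20A, plus).
CCNB2: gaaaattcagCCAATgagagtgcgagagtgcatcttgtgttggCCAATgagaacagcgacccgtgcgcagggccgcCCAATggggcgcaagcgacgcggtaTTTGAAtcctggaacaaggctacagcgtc
PLK1: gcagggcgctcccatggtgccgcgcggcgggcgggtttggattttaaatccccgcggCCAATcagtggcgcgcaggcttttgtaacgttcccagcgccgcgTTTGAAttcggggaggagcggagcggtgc
CDK1: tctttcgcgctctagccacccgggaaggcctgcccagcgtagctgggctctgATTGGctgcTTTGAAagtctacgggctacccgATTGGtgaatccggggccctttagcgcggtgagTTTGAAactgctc
NEK2: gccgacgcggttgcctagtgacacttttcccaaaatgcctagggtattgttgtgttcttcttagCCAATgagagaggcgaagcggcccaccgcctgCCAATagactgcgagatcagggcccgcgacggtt
KIF20A: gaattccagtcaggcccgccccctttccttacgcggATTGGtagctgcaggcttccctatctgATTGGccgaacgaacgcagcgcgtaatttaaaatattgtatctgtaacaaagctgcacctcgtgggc

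In 4 members that fell and 2 that were not called, CHR letters stood after the annotated start, with none wholly before it. The same held for the 3 members that rose, CENPF, KIF20B and BUB1. They are shown as 30-base windows at chr1:214603215-214603244 (CENPF, plus strand), chr10:89701602-89701631 (KIF20B, plus) and chr2:110678045-110678074 (BUB1, minus), which begin 21 and 13 bases after the start for the first pair and 11 bases before it for BUB1.
CENPF: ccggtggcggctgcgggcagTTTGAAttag
KIF20B: tggccgccattgTTTGAATTTGAAaacggt
BUB1: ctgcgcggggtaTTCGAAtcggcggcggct

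CHR letters were in 37 of the 57 member windows (64.9%), against 16.4% of all 35116 windows in the RefSeq table. CCAAT letters were in 41 of them (71.9%), against 34.6% of all windows, and both were in 50.9%, against 6.4%. Counted by gene, 34 of 45 members held CHR letters and 36 held CCAAT letters. Of the 32 members with a window that were lower after HNRNPD siRNA, 22 held CHR letters, 18 of them before the start. Of the 10 that were not called, 9 held them, 6 of them before the start. The letters were thus present in members that fell, rose and did neither. A match describes the sequence and is not evidence of a bound factor.

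**Figure D1:**
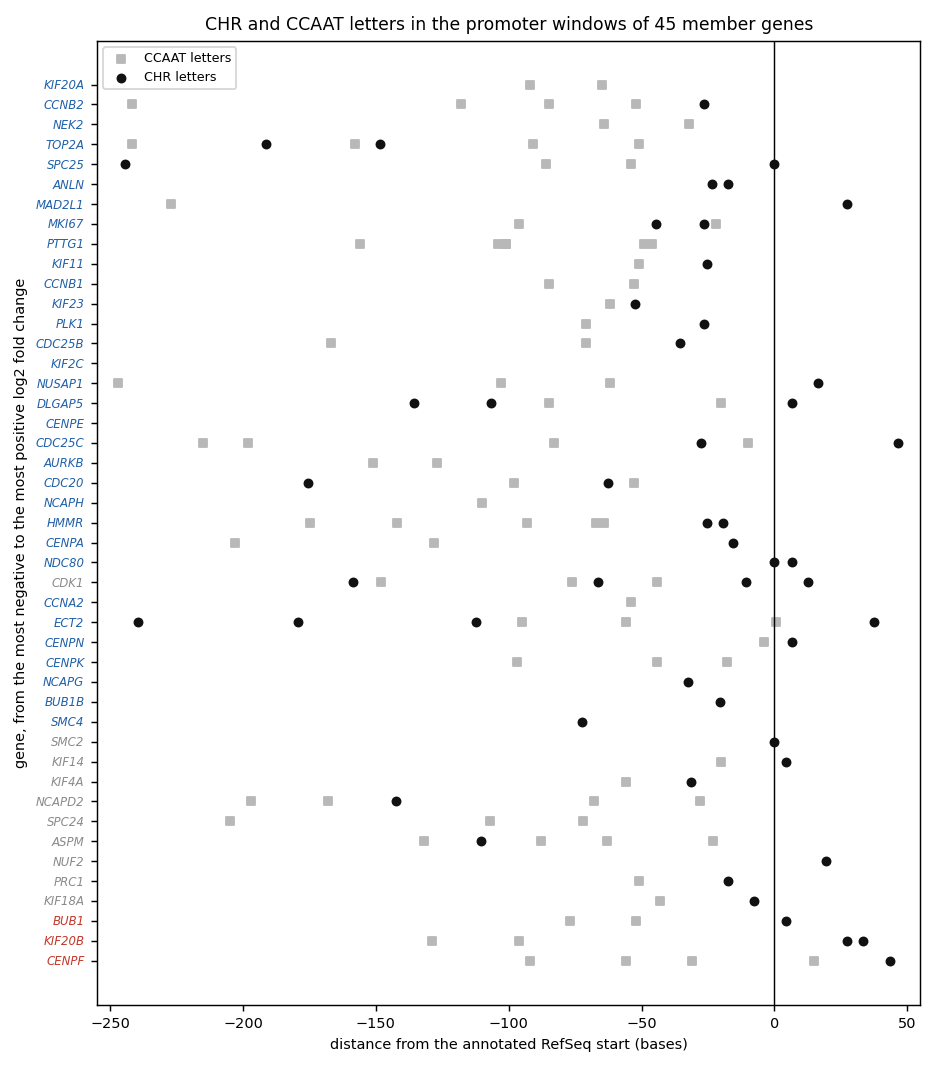
Distance of CHR letters (black circles) and CCAAT letters (grey squares) from the annotated RefSeq start, in bases, for the 45 members with a window; all windows of a gene share its row. Genes run from the most negative to the most positive log2 fold change and names are blue (lower), grey (not called) or red (higher). CHR letters occur in 34 of the 45. Those of the 3 red genes stand after the start, and 4 blue and 2 grey genes also hold such letters with none wholly before it.

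The libraries held 37151094 to 43005090 counts, and every member had at least 155 counts in every library. HNRNPD itself, the targeted gene, stood at 965.4, 942.8 and 942.2 CPM (counts per 1000000 counts, on totals scaled by the TMM method) with the control siRNA and at 177, 162.7 and 167.5 CPM with HNRNPD siRNA (replicates 1 to 3 in order, here and below), a 5.62-fold fall (log2 fold change -2.49, SE 0.06, edgeR adjusted p = 1.38e-15). Of 5 epithelial markers, the keratin genes fell: KRT8 lay at 3242 to 3482 CPM in the control libraries and 2043 to 2065 CPM after HNRNPD siRNA, KRT18 at 964 to 1015 and 567 to 599 CPM, and KRT19 at 7.49 to 7.59 and 3.44 to 4.12 CPM. EPCAM rose, from a range of 16.2 to 17.3 CPM to a range of 20.1 to 22.2 CPM, and CDH1, at 80.8 to 100 CPM, was not called. The lung lineage markers NKX2-1, SFTPB and SFTPC did not exceed 0.275 CPM in any library, so the labelled tissue is not visible in them. Of the markers of other cell types, PTPRC, CD3E, COL1A2 and CDH5 stayed at or below 0.095 CPM, while CD14 (lower after HNRNPD siRNA) and COL1A1 (higher) reached 2.65 and 7.04 CPM; the part of these and the epithelial markers in the results below was not tested. HNRNPD siRNA replicate 3 stood at the opposite end of the second principal component from replicate 1, and member calls that are lost or gained without it are named below.

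Of the 54 members, 38 were lower after HNRNPD siRNA, 3 were higher and 13 were not called, at an adjusted p under 0.05 over the 20465 genes tested with edgeR. The share lower was 70.4%. In the whole table, 27.8% of tested genes were lower and 28.4% higher, and among the 11334 tested genes whose mean reached 5 CPM, as that of every member did, 36.8% were lower and 30.5% higher. The median log2 fold change of the members was -0.34, against -0.05 for those 11334 genes and 0.01 for all tested genes. The falls were of modest size. KIF20A alone fell by 2-fold or more, which is 1 of 54, against a background of 4.06%, and 11 of 54 members fell by at least 1.5-fold, against 13.5% of genes whose mean reached 5 CPM. The groups did not overlap for 39 members that were lower and 3 that were higher in every HNRNPD siRNA library, where the background was 39.5% and 32.8%. Among the 33 members that share no exonic base with another gene, 23 were lower and 3 higher.

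The depth of the fall differed between the HNRNPD siRNA libraries. The median log2 ratio of the members to their control mean was -0.22 in replicate 1, -0.30 in replicate 2 and -0.46 in replicate 3. Over the genes whose mean reached 5 CPM the same medians were -0.04, -0.05 and -0.05. HNRNPD siRNA replicate 3 held the lowest of the 3 levels for 44 members (81.5%, against 39.8% of those genes). Replicate 1 held the highest for 34 (63.0%, against 35.5%). HNRNPD mRNA was at 177, 162.7 and 167.5 CPM in HNRNPD siRNA replicates 1 to 3, and a link to the depth of the fall was not tested. Without replicate 3, 34 members were called lower and 4 higher, around a median log2 fold change of -0.27.

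**Figure D2:**
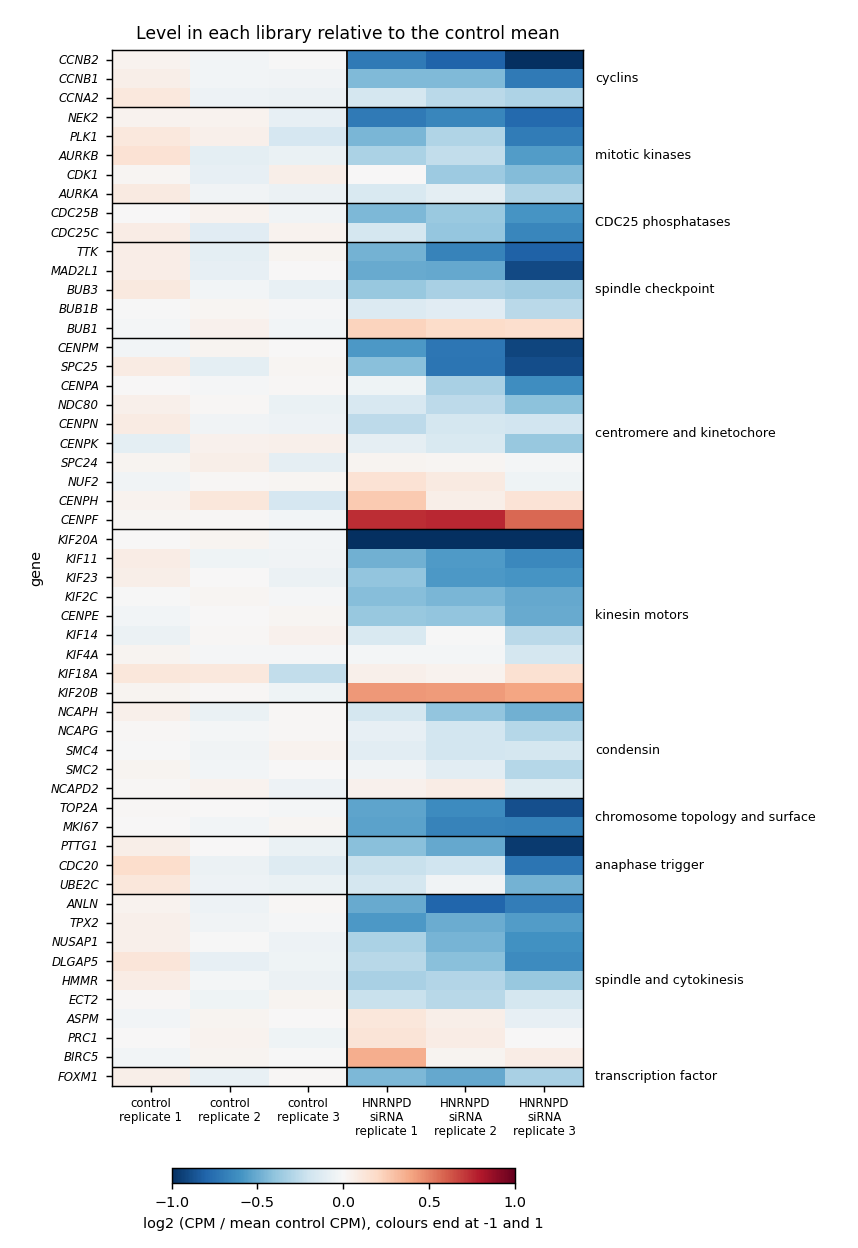
Level of each of the 54 members in each library, as log2 of its CPM over the mean control CPM (colour; blue lower, red higher; colours end at -1 and 1), with genes in rows by role and libraries in columns. HNRNPD siRNA replicate 3 is the bluest column, holding the lowest of the 3 HNRNPD siRNA levels for 44 members, and CENPF and KIF20B are the reddest rows.

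All 3 cyclins fell, with a median log2 fold change of -0.52. CCNB2, a B-type cyclin on chromosome 15 from 59105078 to 59125045 (GRCh38, plus strand), was at 44.0, 42.1 and 42.8 CPM in the control libraries and 26.3, 24.7 and 20.3 CPM in the HNRNPD siRNA libraries. The groups were well apart, and the fall was 1.81-fold (log2 fold change -0.86, SE 0.08, adjusted p = 9.35e-08). CCNB1, the principal mitotic cyclin, fell 1.44-fold from 113 ± 4.36 to 78.8 ± 8.15 CPM (SD, n = 3, edgeR). CCNA2, which acts from DNA replication into early mitosis, was at 36.6, 32.9 and 32.8 CPM against 30.3, 28.3 and 27.5 CPM. Its groups did not overlap, and the fall was 1.19-fold (adjusted p = 0.00652). On the log2 scale the ratio of CCNB2 to CCNA2, each per kilobase of exon, went from 0.33 ± 0.06 in the control libraries to -0.28 ± 0.14 in the HNRNPD siRNA libraries (SD, n = 3). The ratio restates the changes of both genes and carries no test.

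Of 5 mitotic kinases 4 fell, and the median log2 fold change was -0.37. NEK2, a kinase of centrosome separation, was at 67.9, 67.8 and 62.6 CPM in the control libraries and 40.6, 42.1 and 38.5 CPM after HNRNPD siRNA. It had the smallest p-value of the kinases, at a 1.64-fold fall (log2 fold change -0.71, SE 0.06, adjusted p = 2.97e-08). PLK1, which acts at centrosomes, kinetochores and the cleavage site, fell 1.39-fold, and AURKB, the kinase of the chromosomal passenger complex, 1.29-fold. AURKA, a kinase of spindle poles, was at 44.5, 40.7 and 40.1 CPM against 37.6, 39.1 and 33.9 CPM. Although these groups were just apart, the 1.13-fold fall (adjusted p = 0.0388) lost its call without control replicate 1 (adjusted p = 0.161), control replicate 2 (0.0517) or HNRNPD siRNA replicate 3 (0.0962), and with DESeq2 (0.0521). CDK1, the central mitotic kinase, was at 112.1, 104.5 and 115.3 CPM in the control libraries and at 110.8, 86.1 and 81.8 CPM in the HNRNPD siRNA libraries. Its replicate 1 with HNRNPD siRNA lay inside the control range, and CDK1 was not called (log2 fold change -0.25, adjusted p = 0.0567). Without that library it was (-0.41, adjusted p = 6.66e-05), as it was with all libraries by DESeq2 (0.0177) and limma-voom (0.0234). The log2 fold change of CDK1 ran from -0.41 to -0.18 with each library left out in turn. Counting the checkpoint kinases TTK and BUB1 and the related BUB1B with this group gave 6 lower and 1 higher of 8.

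The phosphatases that activate CDK1 were both lower. CDC25B was at 144.5, 147.4 and 140.3 CPM against 105.6, 111.5 and 95.5 CPM, a 1.38-fold fall (adjusted p = 5.06e-06). CDC25C, the least abundant member per length, was at 10.4, 9.08 and 10.1 CPM in the control libraries and 8.68, 7.52 and 6.27 CPM after HNRNPD siRNA, a 1.31-fold fall (adjusted p = 0.00877). In neither gene did the groups overlap.

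In the spindle checkpoint 4 of 5 genes fell and BUB1 rose, with a median log2 fold change of -0.35. TTK, the kinase that starts checkpoint signalling, was at 18.1, 16.1 and 17.6 CPM against 12.4, 10.8 and 9.87 CPM. The fall was 1.56-fold (log2 fold change -0.65, SE 0.10, adjusted p = 1.49e-05). MAD2L1, which encodes the MAD2 protein that inhibits CDC20, fell 1.55-fold, BUB3 1.28-fold and BUB1B, which encodes the checkpoint protein BUBR1, 1.13-fold. BUB1, the kinase that recruits checkpoint proteins to the kinetochore, was at 56.3, 59.1 and 56.1 CPM in the control libraries and 66.8, 65.0 and 64.2 CPM in the HNRNPD siRNA libraries. Every HNRNPD siRNA library was above every control library, by a small margin (1.14-fold, adjusted p = 0.0102), and the call was lost without control replicate 1 (0.0527) or 3 (0.0697). BUB1B was no longer called without control replicate 2 (adjusted p = 0.0545). It shares a fraction of 0.102 of its exons with the read-through gene BUB1B-PAK6.

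Centromere and kinetochore genes split, 6 of 10 being lower, 1 higher and 3 not called around a median log2 fold change of -0.21. CENPF, a large protein of the outer kinetochore and a farnesylated late-cycle protein, lies on chromosome 1 from 214603195 to 214664588 (plus strand). It was at 562.1, 560.4 and 544.8 CPM in the control libraries and at 927.4, 938.7 and 826.5 CPM after HNRNPD siRNA. With a 1.62-fold rise it was the member that rose most (log2 fold change 0.69, SE 0.06, adjusted p = 2.65e-08), and it ranked 9 of 54 by control level per length. CENPM, a subunit of the inner kinetochore, was at 7.18, 7.45 and 7.34 CPM against 4.92, 4.44 and 3.87 CPM, a 1.66-fold fall (log2 fold change -0.73, SE 0.12, adjusted p = 6.08e-05). CENPA, the histone variant that marks the centromere, fell 1.24-fold (adjusted p = 0.043), and its call was lost on leaving out any control library or HNRNPD siRNA replicate 2 or 3 (adjusted p = 0.0823 to 0.17) and by DESeq2 (0.0788). The inner kinetochore genes CENPK and CENPN fell 1.15-fold and 1.16-fold. The call of CENPK was lost when control replicate 2, control replicate 3 or HNRNPD siRNA replicate 3 was left out (adjusted p = 0.0645 to 0.0882). That of CENPN was lost when replicate 1 or 2 of either group was left out (adjusted p = 0.0528 to 0.132) and by DESeq2 (0.0699). CENPH, a partner of CENPK in the inner kinetochore, was not called (log2 fold change 0.15, adjusted p = 0.172).

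The NDC80 complex, the main microtubule coupler of the kinetochore, has 4 subunits that assemble together, and their mRNAs did not move in step. SPC25 was at 31.7, 28.0 and 30.3 CPM in the control libraries and 22.4, 18.1 and 16.2 CPM after HNRNPD siRNA (1.59-fold lower, adjusted p = 2.91e-05). NDC80 fell 1.21-fold (adjusted p = 0.00576). SPC24 and NUF2 were not called, at log2 fold changes of 0.01 (adjusted p = 0.928) and 0.07 (adjusted p = 0.404), and the groups overlapped in both. SPC24 and SPC25 encode direct partners, and the log2 ratio of SPC25 to SPC24 per kilobase, at 0.70, 0.49 and 0.76 with the control siRNA, was 0.20, -0.09 and -0.22 with HNRNPD siRNA. For NDC80 over NUF2 this ratio went from -0.83 ± 0.09 to -1.17 ± 0.03 (SD, n = 3). These pairs were picked after their values were seen, and the ratios carry no test.

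Kinesin motors held both the largest fall and a called rise, with 5 lower, 1 higher and 3 not called of 9 and a median log2 fold change of -0.42. KIF20A, a motor of the central spindle needed for cytokinesis (chromosome 5 from 138178719 to 138187715, plus strand), was at 88.8, 90.4 and 86.8 CPM in the control libraries and at 35.9, 37.8 and 23.5 CPM in the HNRNPD siRNA libraries. Its fall was 2.74-fold (log2 fold change -1.45, SE 0.18, adjusted p = 0.00101), and between -1.58 and -1.28 with each library left out in turn. KIF20B, a related kinesin-6 that also works in cytokinesis, moved the other way. It was at 160.6, 159.1 and 153.2 CPM against 213.4, 211.2 and 207.3 CPM, a 1.34-fold rise with no overlap (log2 fold change 0.42, SE 0.06, adjusted p = 3.82e-06). Per kilobase the pair stood at 22.4 (KIF20A) and 23.0 (KIF20B) CPM in the control libraries and at 8.18 and 30.7 CPM after HNRNPD siRNA. KIF11, the motor that pushes spindle poles apart, was at 243.5, 225.0 and 226.0 CPM against 166.0, 156.2 and 148.5 CPM and had the smallest p-value of the motors (1.48-fold lower, adjusted p = 3.21e-07).

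Among the other motors, KIF23, the partner of RACGAP1 at the midzone, fell 1.43-fold, KIF2C, a microtubule depolymerase, 1.38-fold and CENPE, which moves chromosomes to the spindle equator, 1.34-fold. The log2 ratio of CENPE to CENPF per kilobase went from -1.30 ± 0.05 to -2.42 ± 0.04 (SD, n = 3). This ratio restates the changes of both genes and carries no test. KIF14, KIF4A and KIF18A, motors that act on chromosomes, spindle microtubules or the midbody, were not called, at log2 fold changes of -0.14, -0.07 and 0.08, though KIF14 was lower without HNRNPD siRNA replicate 2 (adjusted p = 0.0199). The log2 fold change of KIF14 ran from -0.21 to -0.08 with each library left out in turn. KIF4A has a near-identical retrocopy, KIF4B, which was given 10 counts or fewer in any library, and the handling of reads that match both was not given in the sources used here. Placing CENPE with the kinetochore instead left 4 lower and 1 higher of 8 motors and 7 lower and 1 higher of 11 kinetochore genes.

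**Figure D3:**
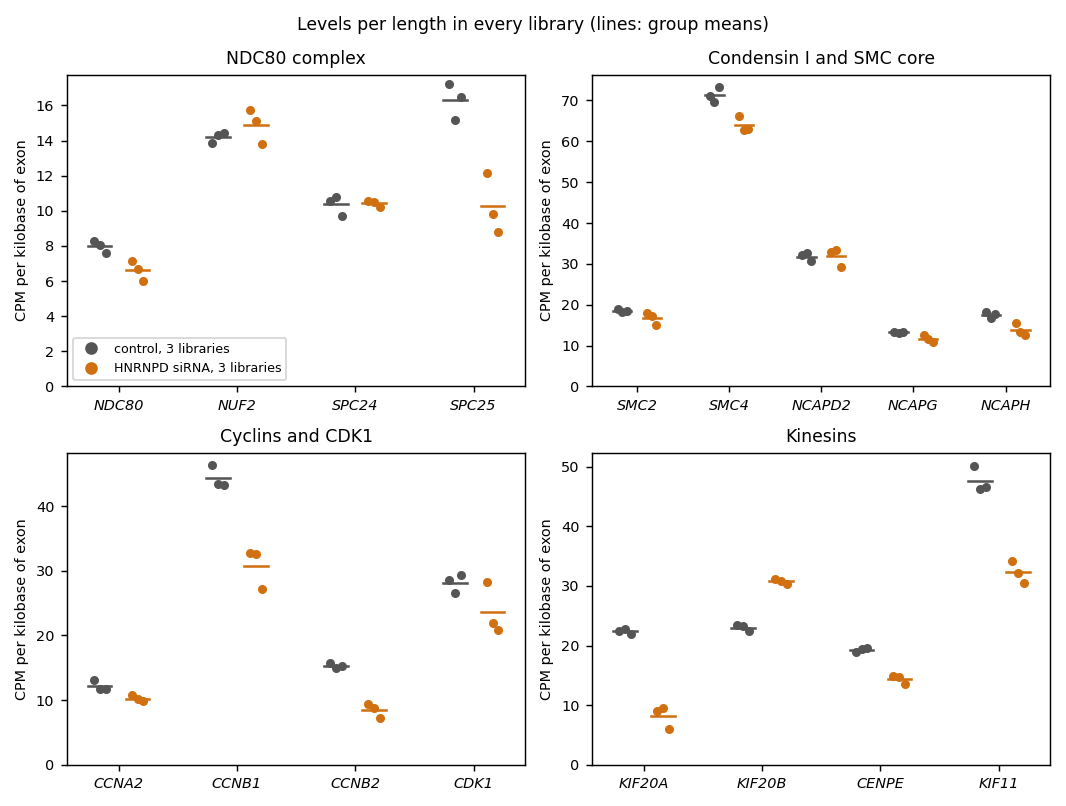
Levels in CPM per kilobase of exon (vertical axes from 0) in each control library (grey points) and HNRNPD siRNA library (orange points) for the NDC80 complex, condensin, cyclins with CDK1, and 4 kinesins; lines are group means. SPC25 drops below its control libraries while SPC24 overlaps them, and KIF20A and KIF20B, near-equal in the control libraries, separate.

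Condensin had the smallest median change of the 5 roles compared, at -0.16, with 3 lower and 2 not called of 5. NCAPH, the kleisin of condensin I, was at 59.6, 55.1 and 58.0 CPM in the control libraries and 51.1, 43.8 and 41.2 CPM after HNRNPD siRNA, a 1.27-fold fall (log2 fold change -0.35, SE 0.08, adjusted p = 0.000731). NCAPD2, another condensin I subunit, was at 208.0, 211.6 and 198.8 CPM against 212.7, 217.4 and 189.0 CPM, and the groups overlapped (log2 fold change 0.00, adjusted p = 0.983). NCAPG and SMC4 fell 1.13-fold and 1.12-fold, and each lost its call when control replicate 1, control replicate 3 or HNRNPD siRNA replicate 2 was left out (adjusted p up to 0.0544 and 0.1), SMC4 also with library totals only (0.0573). Genes on the opposite strand overlap a fraction of 0.331 of the exons of NCAPG (LCORL) and 0.256 of those of SMC4 (IFT80 and TRIM59). SMC2, the partner of SMC4, was not called (log2 fold change -0.14, adjusted p = 0.0802), but was lower without HNRNPD siRNA replicate 1 (adjusted p = 0.0197). With replicate 3 left out, the log2 fold change of SMC2 shrank to -0.08, not called. The log2 ratio of SMC4 to SMC2 per kilobase was 1.94 ± 0.03 in the control libraries and 1.93 ± 0.11 after HNRNPD siRNA (SD, n = 3), and the groups overlapped.

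By role, the medians were -0.52 for cyclins, -0.42 for motors, -0.37 for kinases, -0.21 for the kinetochore and -0.16 for condensin. With ranges of -0.86 to -0.25 (cyclins), -1.45 to 0.42 (motors), -0.71 to -0.18 (kinases), -0.73 to 0.69 (kinetochore) and -0.35 to 0.00 (condensin), the roles overlapped. The place of motors before kinases depended on the sorting. With CENPE counted as a kinetochore gene, the median was -0.30 for motors, less negative than that of the kinases, and -0.21 for the kinetochore. With TTK, BUB1 and BUB1B added, that of the kinases was -0.31. No test compared the roles, and the order describes these lists only.

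**Figure D4:**
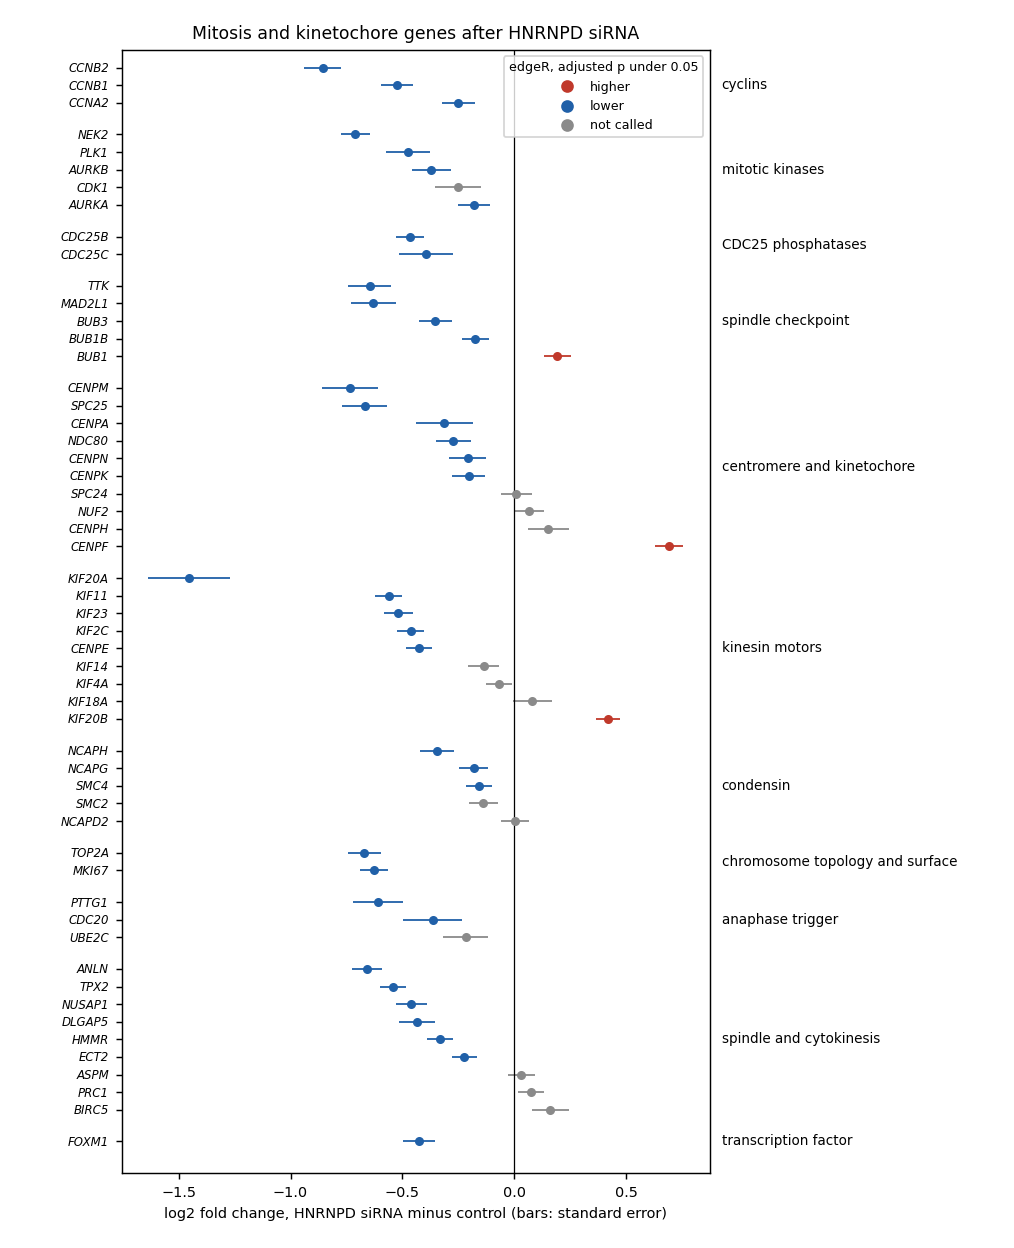
Log2 fold change (HNRNPD siRNA minus control, 3 libraries each) of the 54 members by role, with bars of 1 standard error and colour for the edgeR call at an adjusted p under 0.05. Blue points (38 genes) lie left of 0, KIF20A farthest at -1.45, and the red points are BUB1, KIF20B and CENPF.

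TOP2A and MKI67 were among the most abundant members and both fell. MKI67, which coats mitotic chromosomes and is the clinical marker Ki-67, was at 1712, 1682 and 1736 CPM in the control libraries and 1180, 1075 and 1069 CPM in the HNRNPD siRNA libraries (1.54-fold lower, log2 fold change -0.63, SE 0.06, adjusted p = 7.69e-08). TOP2A, topoisomerase II alpha, was at 815.4, 808.3 and 797.4 CPM against 560.3, 521.8 and 439.0 CPM (1.59-fold lower, adjusted p = 6.66e-07). Per kilobase they ranked first and second, at 134 and 125 CPM in the control libraries, and PRC1 came next at 90.3 CPM. The summed level of all 54 members came to 8934, 8766 and 8771 CPM with the control siRNA and 7754, 7408 and 6914 CPM with HNRNPD siRNA, and MKI67 alone made up 14.5% to 19.8% of it.

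Of the genes that trigger anaphase, PTTG1 and CDC20 fell and UBE2C was not called. PTTG1, which encodes securin, the inhibitor of separase, was at 30.4, 29.3 and 27.8 CPM against 21.8, 20.4 and 15.0 CPM (1.53-fold lower, adjusted p = 0.000379). Its near-identical copies PTTG2 and PTTG3P were given at most 2 counts in any library. CDC20, the activator of the anaphase-promoting complex, fell 1.29-fold (adjusted p = 0.0266), a call lost without control replicate 1 (0.129) or HNRNPD siRNA replicate 3 (0.0715). UBE2C, the complex's ubiquitin-conjugating enzyme, was at 19.8, 17.6 and 17.5 CPM against 16.2, 17.9 and 13.2 CPM, and the groups overlapped (log2 fold change -0.22, adjusted p = 0.0779). It was called without HNRNPD siRNA replicate 2 (log2 fold change -0.32, adjusted p = 0.0177). With replicate 3 left out, the log2 fold change of UBE2C shrank to -0.11, not called.

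In the spindle and cytokinesis role 6 of 9 genes fell and none was called higher by edgeR (median log2 fold change -0.33). ANLN, the actin-binding scaffold of the cleavage furrow, was at 454.6, 430.0 and 448.1 CPM in the control libraries and 312.6, 256.6 and 275.8 CPM after HNRNPD siRNA (1.58-fold lower, log2 fold change -0.66, SE 0.07, adjusted p = 1.82e-07). TPX2, the activator of AURKA on spindle microtubules, fell 1.46-fold from 258 ± 8.15 to 177 ± 4.95 CPM (SD, n = 3, edgeR adjusted p = 1.95e-07). NUSAP1 and DLGAP5, which stabilise spindle microtubules, fell 1.38-fold and 1.35-fold, HMMR, a spindle-assembly factor, 1.26-fold and ECT2, the RhoA activator of cytokinesis, 1.17-fold. PRC1, which bundles midzone microtubules, and ASPM, a spindle pole protein, were not called, at log2 fold changes of 0.07 and 0.03. BIRC5, which encodes survivin of the chromosomal passenger complex, was at 25.8, 26.7 and 26.1 CPM against 33.8, 26.7 and 27.5 CPM. Only HNRNPD siRNA replicate 1 stood clearly above the control libraries, and BIRC5 was not called (log2 fold change 0.16, adjusted p = 0.113), though it was without replicate 2 (adjusted p = 0.0462) or 3 (0.0403).

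FOXM1, the transcription factor that activates many of these genes, was at 38.3, 34.9 and 37.0 CPM in the control libraries and 26.9, 25.7 and 29.4 CPM in the HNRNPD siRNA libraries. The groups did not overlap, and the fall was 1.34-fold (log2 fold change -0.43, SE 0.07, adjusted p = 5.94e-05). ITFG2, on the opposite strand, overlaps a fraction of 0.159 of the exons of FOXM1, and antisense genes overlap 0.129 of PLK1 and 0.128 of CENPN.

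A second list of 120 mitosis genes outside the 54 gives the rest of the pathway, of which 119 could be tested (KIF2B did not pass the count filter). Lower were 55 (46.2%) and higher 21 (17.6%), around a median log2 fold change of -0.18, beside the 27.8% and 28.4% of all tested genes, or 36.8% and 30.5% of those whose mean reached 5 CPM. With each library left out in turn, 49 to 54 were lower and 16 to 27 higher, the 27 without HNRNPD siRNA replicate 3. B-MYB (MYBL2), which works upstream of FOXM1 on late cell cycle promoters, fell 1.65-fold from 151 to 91.9 CPM (adjusted p = 9.2e-09), and its relative MYBL1 fell 1.58-fold. In the list of the DREAM and MuvB complexes with B-MYB, 4 of 12 were lower (33.3%), none was higher and 8 were not called in edgeR. That share lower lay between the 27.8% of all tested genes and the 36.8% of those whose mean reached 5 CPM. Among other mitotic kinesins 4 of 6 were lower and none higher, led by KIF15 (1.52-fold) and KIF18B (1.39-fold), and 2 of 3 further condensin subunits were lower, NCAPD3 (1.27-fold) and NCAPG2 (1.17-fold).

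Among 29 other kinetochore genes, 16 were lower (55.2%) and 4 higher (13.8%). Of all tested genes 27.8% were lower and 28.4% higher, and of those whose mean reached 5 CPM 36.8% and 30.5%. ZW10, which brings dynein to kinetochores, rose 3.10-fold from 3.66 to 11.3 CPM (adjusted p = 9.18e-10), ZWINT 1.34-fold, MIS12 1.44-fold and SKA2 1.35-fold. CENPS, of the histone-fold CENP-S and CENP-X pair, fell 1.81-fold, but a fraction of 0.647 of its exons overlaps APITD1-CORT and another gene. Of 9 genes of the passenger complex and checkpoint, 5 were lower (55.6%) and 2 higher (22.2%). MAD2L2, a MAD2 relative that works mainly in translesion synthesis and DNA repair, fell 5.39-fold from 7.87 to 1.46 CPM, whereas MAD1L1, the kinetochore anchor of MAD2, rose 2.18-fold from 49.4 to 108 CPM. INCENP, the scaffold of the passenger complex, rose 1.36-fold while its kinase AURKB fell. The log2 ratio of INCENP to AURKB per kilobase went from 2.64 ± 0.14 to 3.46 ± 0.33 (SD, n = 3). That ratio, too, restates both changes and carries no test.

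In cohesin and the anaphase-promoting complex, the shares lower (33.3% and 29.4%) and higher (33.3% and 35.3%) were near those of all tested genes. Of 12 cohesin genes 4 were lower and 4 higher, led by PDS5A (1.71-fold lower) and SMC1A (1.58-fold higher). In the anaphase-promoting complex list 6 were higher and 5 lower of 17, the lower being ANAPC11 (1.73-fold), ANAPC16, FZR1, UBE2S and the inhibitor FBXO5 (1.51-fold). Kinases and phosphatases of mitotic entry had 3 in each direction of 10. MASTL, the Greatwall kinase that restrains a phosphatase opposing CDK1, rose 2.08-fold, and PKMYT1, which inhibits CDK1, fell 1.49-fold, with a fraction of 0.122 and 0.316 of their exons overlapped by neighbours. Of 21 other spindle, centrosome and cytokinesis genes 12 were lower (57.1%) and 2 higher (9.52%). FAM83D, a spindle protein, fell 2.12-fold, NUMA1, a spindle pole organiser with 0.249 of its exons overlapped by other genes, rose 1.63-fold, and TACC3, a spindle microtubule cross-linker, rose 1.22-fold.

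**Figure D5:**
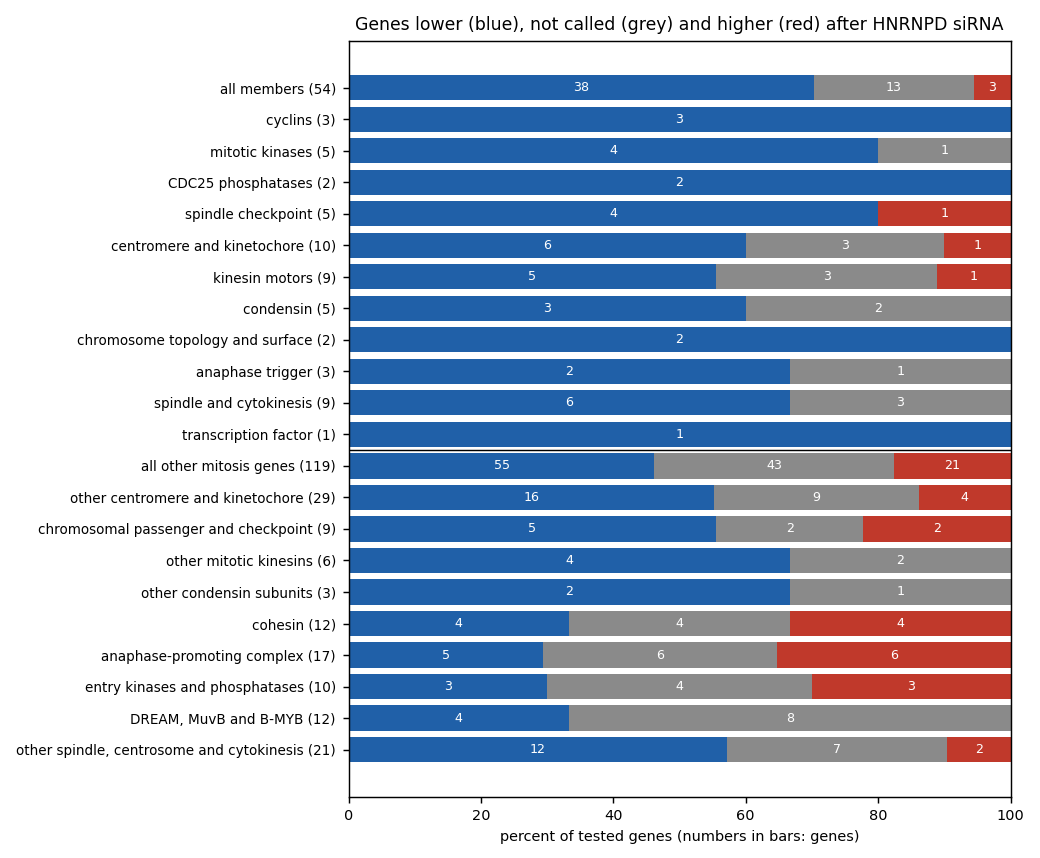
Share of tested genes in each role that were lower (blue), not called (grey) or higher (red) after HNRNPD siRNA, in percent, with the number of genes in each bar and the number tested beside each role; members are above the line and the second list below it. Of the members 38 of 54 are blue, and of the second list 55 of 119.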

How the data were processed

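The authors deposited a table of whole-number read counts per gene, unnormalized, for 6 libraries, with exon coordinates and gene length per the file headers. Bowtie 0.12.2 and 2 builds (GRCh38, mm8) are listed, with no role given, per the submitters' processing notes. Counting program, annotation and strand were not given in the sources used here, so values of antisense and overlapping genes are uncertain. Between 66.2% and 69.5% of counts of 1 to 20 were even (cause not tested). Groups were compared with edgeR 4.0.16 (R 4.3.3; quasi-likelihood, robust, TMM, filterByExpr, group only; Benjamini-Hochberg over 20465 genes; checked on simulated counts). Each standard error is the absolute log2 fold change over the root of F. DESeq2 1.42.0, limma-voom 3.58.1, other scalings and filters, and leaving out libraries were alternatives. Members were named in full: those with the smallest p, most positive and most negative change per role by library, and of the second list the 2 smallest p per role and any called gene opposing its role. Of that list 4 genes were matched by older symbols in RefSeq. Replicates differed by more than sampling noise (chi-square per degree of freedom 6.63 to 27.67). Members and lists were chosen with earlier results of these data known.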

Additional observations from a re-analysis of the deposited data

How the results depend on the processing

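Over 15 alternatives, 36 of the 54 members kept their direction and their side of the threshold, and 743 of 810 single values did. The count of lower members ran from 32 to 39 and that of higher members from 2 to 4 with each library left out in turn, and 34 were lower with library totals only or with at least 1 CPM in 3 libraries. The members' median log2 fold change ran from -0.41 to -0.27 with a library left out. Every sign change was of a gene that was not called: SPC24 (-0.0133 with no filter, -0.0072 by DESeq2, -0.0461 to 0.0303 with a library left out), KIF18A (-0.0403 to 0.1297), ASPM (-0.0215 to 0.0777) and NCAPD2 (-0.0372 to 0.0541, each with a library left out, and -0.0046 with DESeq2 size factors, -0.0200 with no filter, -0.0139 by DESeq2, -0.0003 by limma-voom, -0.0002 with the replicate block); the cause was not tested. The correlation of deviations was 0.0257, 0.0218 and 0.0139 for equal replicate numbers and -0.0376 to 0.0161 for unequal ones. All were small, and they do not settle whether the libraries were paired. With the replicate block 40 members were lower and 3 higher, as CDK1 (adjusted p = 0.00889) and UBE2C (0.0447) were added. With only the 250 bases before the start searched, 53.3% of member genes held CHR letters against 75.6% in the full window, while over all genes the share went from 19.5% to 17.2%; the member letters lost lie at or after the start. No scaling moved the median of all genes by over 0.1. Calls were lost under 8 of the alternatives for CENPA, 7 for CENPN, 6 for AURKA and 5 for SMC4, all with small changes.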
